A study of Mus musculus with 12 samples.

Results

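The comparison described here set the 2 drugs against each other when each was given alone: 3 libraries of mouse leukaemia cells kept with GSK-LSD1 against 3 libraries of the same cells kept with ruxolitinib. These 6 of the 12 libraries were chosen by treatment, and the genes were those with a mean of at least 10 normalised reads over all 12 libraries, 11484 of the 24411 symbols listed. The cells were BALB/c bone marrow carrying mutant CSF3R, the receptor for granulocyte colony-stimulating factor, and mutant CEBPA, a transcription factor of the granulocyte lineage. Both genes had been introduced by retrovirus, and all groups carried both. The cells were cultured in serum-supplemented IMDM and treated for 24 h with 50 nM ruxolitinib, with 2 nM GSK-LSD1, with both at these doses, or with the solvent DMSO. The labels give 3 numbered libraries per treatment and do not say whether they came from separate cultures, nor how many leukaemias the cells derive from. The p-values therefore measure the spread between these libraries, which may be technical. Since the doses are those of 2 different agents, a difference between them is a difference between 2 nM of the former and 50 nM of the latter.

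Ruxolitinib inhibits JAK1 and JAK2, the kinases that carry the signal of CSF3R and of many other cytokine receptors to STAT transcription factors. GSK-LSD1 inhibits LSD1, a histone demethylase encoded by Kdm1a, which works in a repressor complex with CoREST and histone deacetylases and is brought to its targets in blood cells by the zinc finger repressors GFI1 and GFI1B. A neutrophil fills its granules in an order as it matures. Primary granules with myeloperoxidase and serine proteases are made in promyelocytes, secondary granules with lactoferrin and related proteins follow in myelocytes, and tertiary granules with gelatinase come after them, while chemokine receptors and adhesion molecules appear late. Genes of these steps can therefore be read separately in a transcriptome.

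The 9 markers chosen for the labelled cells (Mpo, Elane, Prtn3, Ctsg, Kit, Cd34, Csf3r, Cebpa and Spi1) were detected in all 6 libraries. For some genes an overlap with another gene on the other strand is named, since the strandedness of the counting is not given in the sources used here. Other genes named below also have such overlaps that are not repeated there, among them Cyba, Adam8, Il1r2, Cd34, Sox4, Thbs1, Cd9, Plek and Ctsl. Transcripts of the introduced genes could be part of what is read as Csf3r and Cebpa. Summed values per library, in units of each library's smallest step, ran from 8260995 to 8528400, so the libraries hardly differed in depth. Ruxolitinib replicate 2 stood apart from its group: it lay at -19.7 on the second principal component (11.1% of the variance), the other ruxolitinib libraries at -4.64 and -2.50. Combination replicate 3 stood apart in the same direction, at -17.3. It enters the comparison of the single drugs through the shared estimate of the spread and through the mean over all 12 libraries. It also enters the values given for the combination. Results are therefore also given without these 2 libraries. Across 11053 genes with a known GC content, the log2 difference between the drugs had a Spearman correlation of -0.143 with GC content, and that of ruxolitinib against DMSO one of 0.420. This is a correlation over genes of the same libraries, and its part in the results was tested only by the correction named in the closing section.

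GSK-LSD1 and ruxolitinib left the cells with different transcriptomes: 2920 of the 11484 genes differed between them, 25.4% of those tested (limma, adjusted p under 0.05). Of these, 1567 (13.6%) were higher after GSK-LSD1 and 1353 (11.8%) higher after ruxolitinib. The larger differences lay mostly on the side of GSK-LSD1. At least 2-fold differences past the test were found in 288 genes that were higher after GSK-LSD1 (2.51%) and in 36 that were lower (0.313%). The median difference over all genes was -0.01 on the log2 scale, and the median size among the 2920 genes was 0.36. The single libraries of the 2 groups did not overlap in 4556 genes, 39.7%. Without GSK-LSD1 replicate 2 or 3, the genes lower after GSK-LSD1 numbered 797 and 826. Without the 2 libraries that stood apart, 1646 genes were higher and 1463 lower after GSK-LSD1. When ruxolitinib replicate 2 alone was left out, 1352 genes were higher and 946 lower. Genes nearest to the limit of 10 were Il20ra and Rps6ka2, both at a mean of 10.04 and so tested, and Atp5g1 at 9.99 and Ttc39aos1 at 9.97, which were not.

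**Figure D1:**
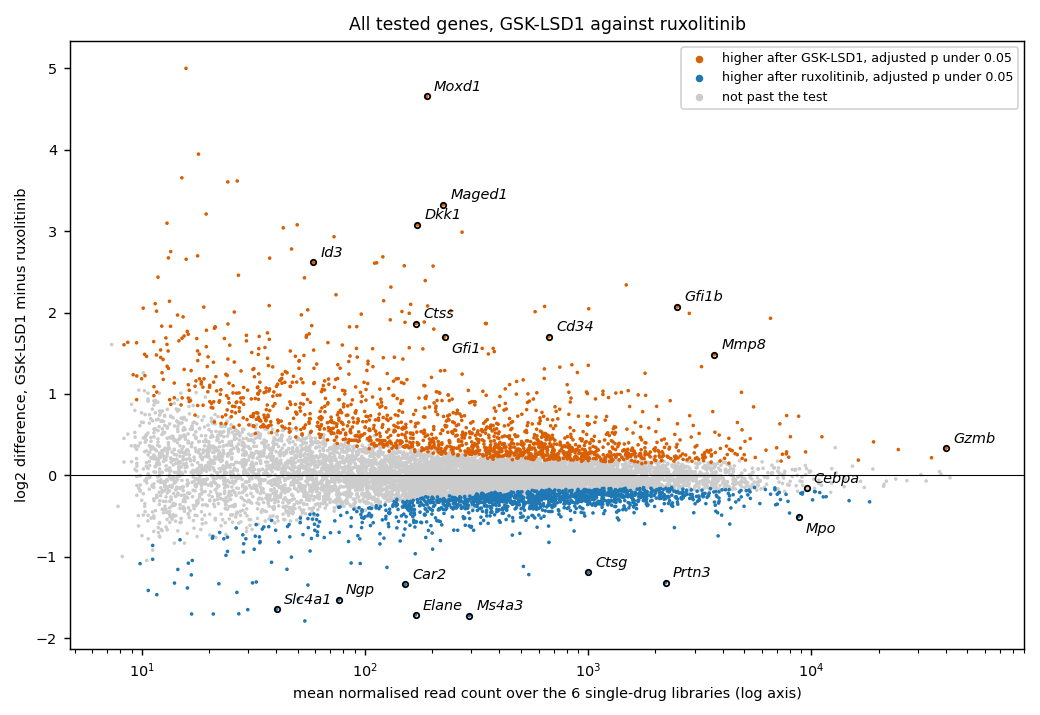
Each point is a gene; the x axis gives its mean normalised read count over the 6 single-drug libraries (log axis) and the y axis the log2 difference, GSK-LSD1 minus ruxolitinib. Orange points (1567) passed the test as higher after GSK-LSD1 and blue points (1353) as higher after ruxolitinib, and the points farthest from 0 lie on the upper side, up to Moxd1 at 4.65.

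The serine proteases of the primary granule differed between the 2 drugs, with the higher values after ruxolitinib. Of the 9 tested members of the primary granule list, 5 were lower after GSK-LSD1 and 1 was higher. Together these were 66.7%, beside 25.4% of all tested genes, and the median log2 difference of the list was -0.48. Elane encodes neutrophil elastase (GRCm38 chr10:79886247-79888215). It was read at 274, 303 and 202 in the 3 ruxolitinib libraries and at 82.9, 76.6 and 72.8 in the 3 GSK-LSD1 libraries, with 144, 135 and 134 after DMSO. Every ruxolitinib library lay above all DMSO libraries and every GSK-LSD1 library below them. The direct difference was -1.71 ± 0.14 (SE) on the log2 scale, 3.28-fold lower after GSK-LSD1, at an adjusted p of 3.96e-09. Against DMSO the log2 change was 0.89 ± 0.14 with ruxolitinib (adjusted p = 0.00251) and -0.82 ± 0.14 with GSK-LSD1 (adjusted p = 9.59e-05), so this gene rose with the former drug and fell with the latter.

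Prtn3, the gene of proteinase 3, lies next to Elane (chr10:79874476-79883174) and overlaps Plppr3 on the other strand. Its values were 3425, 3530.3 and 2581 after ruxolitinib, 1312, 1284 and 1198 after GSK-LSD1 and 2204, 2002 and 2085 after DMSO. The order of the 3 groups was that of Elane, with no overlap. The difference between the drugs was -1.32 ± 0.09 (adjusted p = 2.14e-10), made of a rise of 0.59 with ruxolitinib (adjusted p = 0.00204) and a change of -0.73 with GSK-LSD1 (adjusted p = 1.83e-06). Ctsg, the gene of cathepsin G (chr14:56099881-56102574), was read at 1562, 1541 and 1090.0 after ruxolitinib, 599, 596 and 618 after GSK-LSD1 and 943, 1028 and 953 after DMSO. Here too all ruxolitinib libraries exceeded those of DMSO and all GSK-LSD1 libraries lay under them. The drugs differed by -1.19 ± 0.09 (adjusted p = 3.84e-09); the log2 changes from DMSO were 0.50 ± 0.09 with ruxolitinib (adjusted p = 0.00874) and -0.69 ± 0.09 with GSK-LSD1 (adjusted p = 1.09e-05).

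Mpo, the gene of myeloperoxidase (chr11:87793581-87804413), differed in another way. It stood at 10693, 11874 and 8395 after ruxolitinib, 7042, 7160.2 and 7402 after GSK-LSD1 and 6720.1, 6385 and 6591 after DMSO. Its GSK-LSD1 libraries lay above, not below, those of DMSO, and all of them under those of ruxolitinib. The difference between the drugs was -0.50 ± 0.08 (adjusted p = 0.000119). Against DMSO, Mpo rose with ruxolitinib by 0.64 ± 0.08 (adjusted p = 0.000541), and its change with GSK-LSD1, 0.13 ± 0.08, did not pass (adjusted p = 0.233). Prss57, another granule serine protease, followed Mpo with a difference of -0.48 ± 0.09. Serpinb1a encodes an inhibitor of these proteases, and it was the sole member of this list to be higher after GSK-LSD1: 3563, 3398 and 3405 against 2834, 2582 and 2623 after ruxolitinib, with no overlap and a difference of 0.37 ± 0.06 (adjusted p = 6.41e-05). Srgn, the gene of the granule proteoglycan serglycin, Ctsc, the gene of the dipeptidase that activates the granule proteases, and Cd63 had differences of 0.11, 0.10 and -0.04 and did not pass. Bpi was listed at 0 in all 6 libraries. In 7 of the 9 tested members the libraries of the drugs did not overlap, beside 39.7% of all tested genes.

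Ruxolitinib replicate 2 had the highest value of its group for Elane, Prtn3 and Mpo. Without it and combination replicate 3, the differences were -1.59 for Elane, -1.23 for Prtn3, -1.11 for Ctsg and -0.40 for Mpo, with adjusted p-values of 3.44e-11, 3.7e-15, 2.47e-12 and 4.81e-06. The list then held 2 higher and 5 lower genes after GSK-LSD1.

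**Figure D2:**
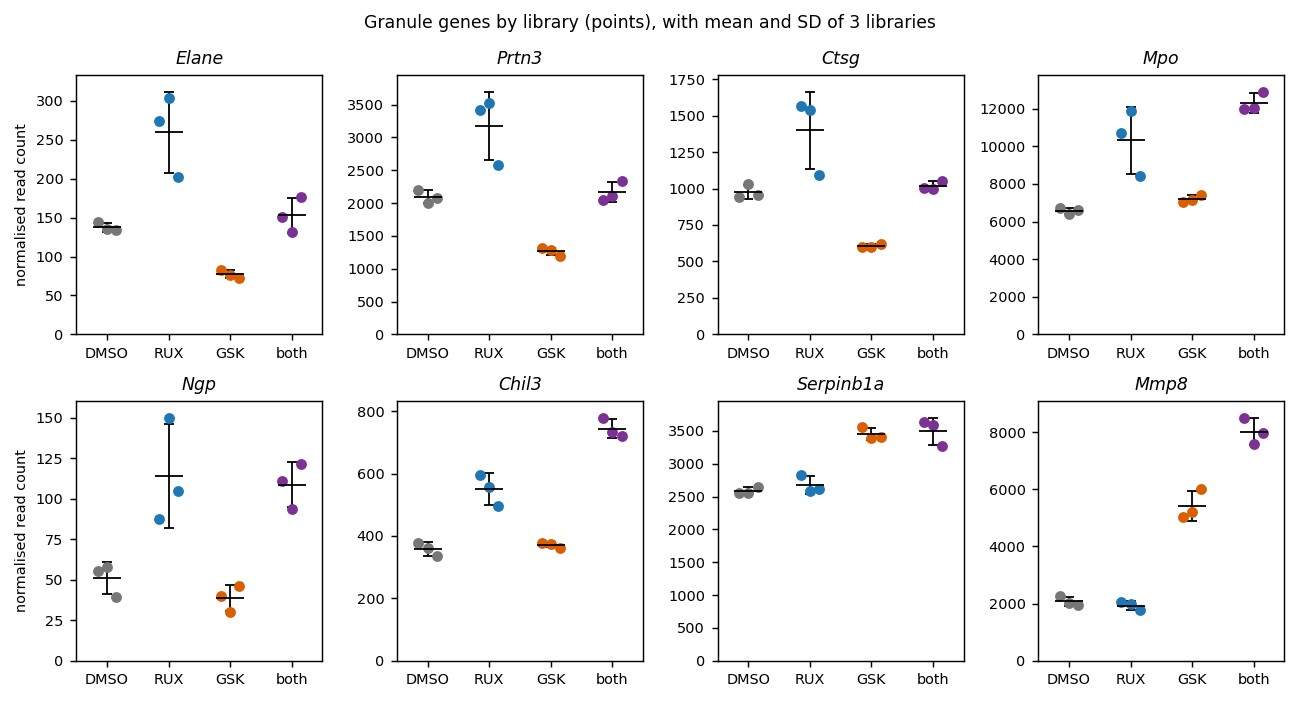
Normalised read counts (y axes, from 0) of 8 granule genes in each library (points) of the 4 treatments (DMSO; RUX, ruxolitinib; GSK, GSK-LSD1; both, the combination), with the mean (dash) and SD (bars) of 3 libraries. For Elane, Prtn3 and Ctsg the ruxolitinib points lie above and the GSK-LSD1 points below those of DMSO, for Mpo, Ngp and Chil3 they lie above those of DMSO and GSK-LSD1, and for Serpinb1a and Mmp8 the GSK-LSD1 points stand above those of DMSO and ruxolitinib.

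Since these proteases moved together, the 250 bases before the start of each RefSeq transcript (GRCm38.p6) are shown for the 3 with the largest differences, 5′ to 3′ on the gene's strand. Capitals mark matches to 4 motifs searched on both strands: GAGGAA, the core bound by PU.1 and other ETS factors, TTGCNNAA, a C/EBP site, AAATCA, the core bound by GFI1 and GFI1B, and TTCNNNGAA, a STAT site.
Elane, chr10:79886062-79886311, plus strand: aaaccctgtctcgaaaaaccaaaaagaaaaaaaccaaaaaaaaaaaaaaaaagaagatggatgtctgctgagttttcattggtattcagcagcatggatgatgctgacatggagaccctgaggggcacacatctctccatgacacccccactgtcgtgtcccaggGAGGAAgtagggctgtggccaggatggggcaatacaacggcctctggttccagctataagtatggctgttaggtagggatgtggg
Prtn3, chr10:79879417-79879666, plus strand: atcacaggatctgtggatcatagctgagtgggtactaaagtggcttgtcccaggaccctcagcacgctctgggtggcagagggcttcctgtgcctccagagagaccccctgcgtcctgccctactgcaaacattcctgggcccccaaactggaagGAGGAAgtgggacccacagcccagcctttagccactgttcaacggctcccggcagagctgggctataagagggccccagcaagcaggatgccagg
Ctsg, chr14:56102575-56102824, minus strand: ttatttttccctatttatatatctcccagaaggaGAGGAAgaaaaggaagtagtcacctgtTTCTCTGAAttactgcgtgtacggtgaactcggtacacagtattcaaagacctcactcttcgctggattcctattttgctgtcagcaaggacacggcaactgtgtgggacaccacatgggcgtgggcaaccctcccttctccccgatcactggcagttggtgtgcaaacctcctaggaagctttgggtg
All 3 windows held GAGGAA, beginning 85 bases before the start in Elane, 95 in Prtn3 and 216 in Ctsg. Ctsg also held a STAT motif, TTCTCTGAA, 189 bases before its start. None of the 3 windows held AAATCA or TTGCNNAA. Of all 32851 RefSeq windows of this length, 23.3% held GAGGAA, 7.0% TTCNNNGAA, 9.6% TTGCNNAA and 12.4% AAATCA. A match describes letters, not a bound site.

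Secondary and tertiary granule genes did not share a direction. Of 13 tested members (5 others, among them Camp, were under the limit), 3 were lower and 2 higher after GSK-LSD1, with a median of -0.17. Those past the test were 38.5%, beside 25.4% of all tested genes. Ngp, which encodes neutrophilic granule protein, was read at 87.5, 150.0 and 105 after ruxolitinib and 40.0, 29.9 and 45.9 after GSK-LSD1, and at 55.6, 58.0 and 39.6 after DMSO. All ruxolitinib libraries lay above both other groups. The difference was -1.53 ± 0.20 (adjusted p = 6.68e-06), with changes from DMSO of 1.13 for ruxolitinib (adjusted p = 0.00722) and -0.40 for GSK-LSD1 (adjusted p = 0.134). Chil3, which encodes a chitinase-like lectin, was also higher after ruxolitinib than after GSK-LSD1 or DMSO. It was read at 597, 556 and 496 after ruxolitinib, 379, 373 and 363 after GSK-LSD1 and 377, 362 and 336 after DMSO. Its GSK-LSD1 and DMSO libraries overlapped, and the drugs differed by -0.56 ± 0.08 (adjusted p = 1.32e-05). Pglyrp1, the gene of a peptidoglycan-binding granule protein, was the third member lower after GSK-LSD1, at -0.64 ± 0.16.

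Mmp8, the gene of neutrophil collagenase (chr9:7558456-7568485), went the other way. It stood at 5016, 5192 and 6006 after GSK-LSD1, against 2040.5, 1991 and 1764 after ruxolitinib and 2252, 2018 and 1953 after DMSO. The lowest GSK-LSD1 library was above every library without that drug, and ruxolitinib overlapped with DMSO. The difference was 1.48 ± 0.07, 2.79-fold, at an adjusted p of 2.11e-12. Adam8, which encodes a membrane metalloprotease, was also higher after GSK-LSD1, by 0.43 ± 0.07 (adjusted p = 0.000135). For Ltf, the gene of lactoferrin, the values were low, 12.9, 11.3 and 8.89 after ruxolitinib and 7.99, 4.98 and 2.99 after GSK-LSD1, and its difference of -0.99 ± 0.40 did not pass (adjusted p = 0.0704). Lcn2, Lyz2 and Mmp9, the genes of lipocalin 2, lysozyme and gelatinase B, had differences of -0.18, 0.05 and 0.34 that did not pass either. Without the 2 libraries that stood apart, the list held 3 higher and 3 lower genes.

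The upstream window of Mmp8, chr9:7558179-7558428 on the plus strand, is shown as that of the granule gene with the opposite sign.
Mmp8: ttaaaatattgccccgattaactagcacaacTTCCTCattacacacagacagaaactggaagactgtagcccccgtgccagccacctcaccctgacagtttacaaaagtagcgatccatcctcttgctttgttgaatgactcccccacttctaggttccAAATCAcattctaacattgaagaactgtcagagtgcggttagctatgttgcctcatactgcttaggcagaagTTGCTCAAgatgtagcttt
It held AAATCA 91 bases, TTGCTCAA (a match to TTGCNNAA) 19 bases and TTCCTC, the ETS core read on the other strand, 219 bases before the start. AAATCA was present in 8.6% of windows of genes higher after GSK-LSD1, in 5.5% of those lower and in 7.3% of those of all tested genes; for GAGGAA these shares were 25.3%, 21.0% and 22.3%. A gene can have several windows here, and no test was run on these shares.

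The NADPH oxidase makes the neutrophil's oxidative burst, and its 2 membrane subunits were higher after ruxolitinib. Of 7 members 3 (42.9%, beside 25.4% of all tested genes) were lower after GSK-LSD1 and none higher, with a median of -0.10. Cybb, the gene of the catalytic subunit gp91phox, stood at 130.3, 111 and 121 after ruxolitinib and 93.9, 76.6 and 85.8 after GSK-LSD1, a difference of -0.49 ± 0.12 (adjusted p = 0.00368). Cyba, the gene of its partner p22phox, stood at 1283, 1562 and 1252 after ruxolitinib and 1159.9, 1054 and 1083 after GSK-LSD1, a difference of -0.31 ± 0.08 (adjusted p = 0.00897). In both genes the groups did not overlap. The call for Cyba was lost without ruxolitinib replicate 2 (adjusted p = 0.0615) or GSK-LSD1 replicate 2 (adjusted p = 0.0509). Hvcn1, the gene of the proton channel that serves the oxidase, differed by -0.41 ± 0.09 (adjusted p = 0.00292) and overlaps Tctn1 on the other strand. The cytosolic subunit genes Ncf1 and Ncf4 and the GTPase gene Rac2 had differences of 0.11, 0.13 and -0.10 and did not pass.

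Surface genes of mature neutrophils lay on the side of GSK-LSD1. Of 18 tested members of the mature neutrophil list 8 were higher after GSK-LSD1 and none lower, with a median of 0.34. That was 44.4%, beside 25.4% of all tested genes. Cxcr2, the gene of a receptor for neutrophil-attracting chemokines, was read at 117, 153 and 141 after GSK-LSD1 and 65.7, 62.7 and 55.3 after ruxolitinib, and Il1r2, the gene of the decoy receptor for interleukin 1, at 58.9, 71.7 and 49.9 after GSK-LSD1 and 30.8, 19.5 and 24.7 after ruxolitinib. Neither gene overlapped between the drugs, with differences of 1.14 ± 0.17 and 1.24 ± 0.21. Itgam, the gene of the integrin chain CD11b, differed by 0.41 ± 0.08 (adjusted p = 0.000789), its values being 461, 456 and 459.7 against 340.2, 343 and 355.

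Further members of this list differed by less than Cxcr2 and Il1r2 or did not pass. S100a9, the gene of a calcium-binding protein abundant in neutrophils, was higher by 0.28 ± 0.10 with an adjusted p of 0.046. That call was lost in 8 of the 23 alternatives, with the highest p, 0.299, when ruxolitinib replicate 3 was left out. Leaving out either of DMSO replicates 1 and 2, or of GSK-LSD1 replicates 1 and 3, ended it too. Its partner S100a8 differed by 0.16 ± 0.09 and did not pass (adjusted p = 0.173). Clec4d, C5ar1 and Selplg also passed, at 0.60, 0.62 and 0.25. Clec4d lost its call without GSK-LSD1 replicate 3 (adjusted p = 0.0542). Selplg lost it when ruxolitinib replicate 1 or 3 or any single GSK-LSD1 library was left out (adjusted p up to 0.136). The same held for C5ar1 when any single DMSO or ruxolitinib library, GSK-LSD1 replicate 1 or 2 or combination replicate 2 was left out (adjusted p up to 0.233). Itgb2, the gene of the chain that pairs with CD11b, and Csf3r differed by 0.01 and -0.12 and did not pass. The count of 8 fell to 5 without ruxolitinib replicate 3, without GSK-LSD1 replicate 1 or without GSK-LSD1 replicate 3, and it stayed at 8 without the 2 libraries that stood apart. Of the list's other genes, Fpr1, Il1b, Retnlg and Itgb2l were under the limit and Ly6g had no entry.

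**Figure D3:**
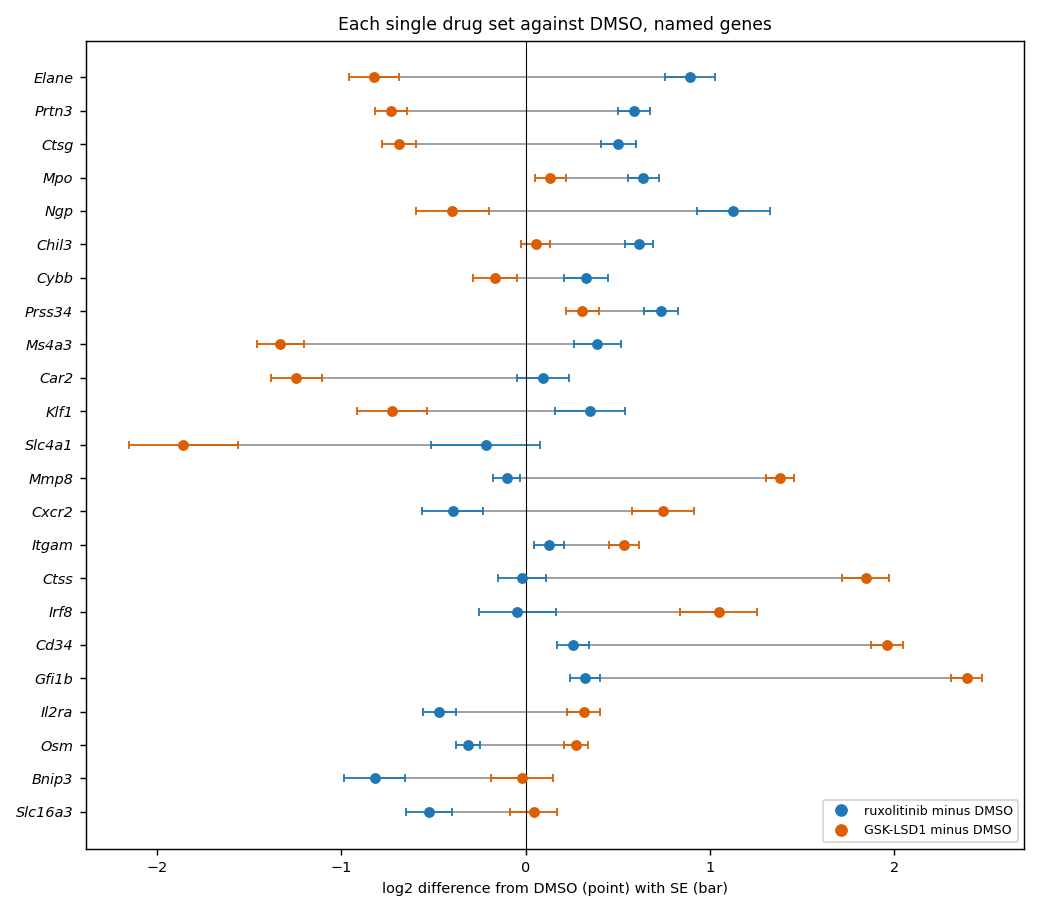
Log2 difference from DMSO (x axis) of named genes after ruxolitinib (blue) and after GSK-LSD1 (orange), with bars for the SE; both use the same 3 DMSO libraries. Elane, Prtn3 and Ctsg have the blue point right of 0 and the orange point left of it, Il2ra and Osm the reverse, and for Mmp8, Ctss, Cd34 and Gfi1b the orange point alone lies beyond 1.

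Monocyte and macrophage genes were the marker list with the highest median among the 25, at 0.74. Of its 19 tested members 15 (78.9%, beside 25.4% of all tested genes) were higher after GSK-LSD1 and none lower. After quantile normalisation 13 were higher and 2 lower. The drugs did not overlap in 18 of 19, counted in either direction, beside 39.7% of all tested genes. Ctss, the gene of cathepsin S (chr3:95526786-95556403), was read at 239, 269.7 and 289 after GSK-LSD1 and 67.7, 90.4 and 61.3 after ruxolitinib, beside 78.5, 68.0 and 73.3 after DMSO. All GSK-LSD1 libraries lay above those of ruxolitinib and DMSO, and the difference was 1.86 ± 0.13, 3.64-fold (adjusted p = 4.33e-10). Irf8, the gene of a transcription factor that favours monocytes over neutrophils, was read at 63.9, 69.7 and 54.8 after GSK-LSD1 and 40.8, 23.6 and 24.7 after ruxolitinib, a difference of 1.09 ± 0.21 (adjusted p = 0.000525). Csf1, the gene of macrophage colony-stimulating factor, stood at 419.6, 479 and 461 after GSK-LSD1 and 207, 254 and 205 after ruxolitinib, and differed by 1.03 ± 0.11 (adjusted p = 3.56e-07). Its receptor gene Csf1r was low, at 40.0, 50.8 and 47.9 after GSK-LSD1 and 31.8, 22.6 and 27.7 after ruxolitinib, and differed by 0.74 ± 0.22 (adjusted p = 0.0164). This last call was lost without ruxolitinib replicate 2 (adjusted p = 0.0733), GSK-LSD1 replicate 2 (adjusted p = 0.0738) or GSK-LSD1 replicate 3 (adjusted p = 0.0589). It was also lost after quantile normalisation (adjusted p = 0.0615) and without the 2 libraries that stood apart (adjusted p = 0.0509).

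Among the surface and secreted proteins of this list, Adgre1 (F4/80), Cd14 (a co-receptor for endotoxin), Ccr2 (a monocyte chemokine receptor), Fcgr3 (an IgG receptor) and Lgals3 (galectin 3) were higher after GSK-LSD1 by 1.37, 0.78, 0.76, 0.51 and 0.73. Cx3cr1 and Ly6c2, which mark monocyte subsets, had differences of -0.72 and -0.66 and did not pass (adjusted p = 0.057 and 0.0753). The summed level of the whole list ran from 16947 to 17512 in the GSK-LSD1 libraries and from 10821 to 11729 in those of ruxolitinib. Some defining monocyte genes stayed low: Klf4 was read at 2.00, 0 and 1.99 after GSK-LSD1 and 1.99, 0 and 3.95 after ruxolitinib, and Maf, Msr1, Cd36, Mrc1 and Lpl were under the limit. In bulk libraries a change in the share of monocyte-like cells and a change in RNA per cell cannot be told apart. Without the 2 libraries that stood apart the list held 14 higher and 1 lower genes.

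Lysosomal genes showed the same side in part. Of 21 tested members 7 were higher after GSK-LSD1 and none lower, with a median of 0.14. That was 33.3%, beside 25.4% of all tested genes. The largest difference was that of Scpep1, which encodes a serine carboxypeptidase and overlaps Scpep1os on the other strand: 191, 208 and 227 after GSK-LSD1 against 36.8, 29.8 and 28.7 after ruxolitinib. Its groups lay far apart, at 2.68 ± 0.18 or 6.42-fold (adjusted p = 2.15e-10). Asah1, Ctsl and Man2b1, the genes of acid ceramidase, cathepsin L and a lysosomal mannosidase, differed by 0.49, 0.39 and 0.28. The cathepsin genes Ctsb and Ctsd differed by 0.00 and 0.05 and did not pass. The number of lysosomal genes past the test was 11 without the 2 libraries that stood apart and 13 after a correction for GC content.

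The genes of the repressors that bring LSD1 to its targets were themselves among the larger differences. Gfi1b (chr2:28609450-28621982) was read at 4194, 3912 and 4015 after GSK-LSD1, 917, 1130.2 and 858 after ruxolitinib and 833, 743 and 734 after DMSO. The GSK-LSD1 libraries lay far above both other groups, and all ruxolitinib libraries above those of DMSO. The drugs differed by 2.07 ± 0.08, 4.20-fold (adjusted p = 4.76e-14), and against DMSO Gfi1b rose with GSK-LSD1 by 2.39 (adjusted p = 7.82e-15) and with ruxolitinib by 0.32 (adjusted p = 0.0486). Gfi1 (chr5:107716657-107726036; it overlaps A430072P03Rik on the other strand) was read at 349, 309.5 and 385 after GSK-LSD1, 124, 109 and 87.9 after ruxolitinib and 91.4, 99.0 and 93.1 after DMSO. Its difference was 1.70 ± 0.12 (adjusted p = 4.05e-10), and ruxolitinib overlapped with DMSO.

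The upstream window of Gfi1b, chr2:28621983-28622232 on the minus strand, is shown because GFI1B and GFI1 are known to repress their own genes.
Gfi1b: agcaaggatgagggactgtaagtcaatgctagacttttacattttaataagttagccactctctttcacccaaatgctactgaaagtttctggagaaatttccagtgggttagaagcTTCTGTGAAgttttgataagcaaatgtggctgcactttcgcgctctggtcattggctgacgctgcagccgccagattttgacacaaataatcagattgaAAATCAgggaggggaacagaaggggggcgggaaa
It held AAATCA 34 bases and the STAT match TTCTGTGAA 133 bases before the start. Neither of the 2 RefSeq windows of Gfi1 held AAATCA, and a single match to TTGCNNAA lay 143 bases before its first start.

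Other parts of the LSD1 complex differed by less. Kdm1a, the gene of the drug's target, was read at 1261, 1325 and 1278 after GSK-LSD1 and 1213, 1205 and 1279.7 after ruxolitinib. These values overlapped in part of their range, and the difference of 0.06 ± 0.06 did not pass (adjusted p = 0.429). Of 16 members of the complex list, 5 were higher after GSK-LSD1 and 1 was lower, a share of 37.5% beside 25.4% of all tested genes. Apart from Gfi1 and Gfi1b the higher ones were Rcor1 (CoREST), Phf21a and Zmym2, at 0.28, 0.31 and 0.35, and the lower one was Hdac2, a histone deacetylase, at -0.24 ± 0.06 (adjusted p = 0.00525). Zmym2 did not pass without ruxolitinib replicate 2 (adjusted p = 0.0514), nor Phf21a without GSK-LSD1 replicate 3 (adjusted p = 0.097). Rcor1 did not pass without ruxolitinib replicate 1 or 2 or GSK-LSD1 replicate 2 or 3 (adjusted p up to 0.206), nor without the 2 libraries that stood apart.

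Among 27 tested transcription factor genes of myeloid cells, 8 were higher after GSK-LSD1 and 5 lower (median 0.08). Those past the test were 48.1%, beside 25.4% of all tested genes. Id3, whose protein binds and blocks helix-loop-helix transcription factors, stood at 107, 99.5 and 97.7 after GSK-LSD1 and 12.9, 14.4 and 20.8 after ruxolitinib, a difference of 2.61 ± 0.26 (adjusted p = 1.11e-07). Klf2, a Krüppel-like factor gene, stood at 206, 168 and 222 after GSK-LSD1 and 63.7, 82.2 and 70.2 after ruxolitinib, a difference of 1.45 ± 0.17 (adjusted p = 1.35e-06). Both had no overlap between the drugs. Zeb2, Id2 and Erg were higher by 0.65, 0.49 and 0.35. Lower after GSK-LSD1 were Egr1, an immediate early gene, at -0.67 ± 0.10 (adjusted p = 5.22e-05), and the erythroid and stem cell regulators Lmo2, Zfpm1, Gata1 and Lyl1 at -0.54, -0.37, -0.35 and -0.28. The call for Zfpm1 was lost without ruxolitinib replicate 2 (adjusted p = 0.0689), and that for Lyl1 without ruxolitinib replicate 2 or GSK-LSD1 replicate 2 or 3 (adjusted p up to 0.0667). Egr1 fell against DMSO with each drug, at -0.55 with ruxolitinib (adjusted p = 0.00874) and -1.23 with GSK-LSD1 (adjusted p = 1.07e-08). Without the 2 libraries that stood apart the list held 10 higher and 6 lower genes.

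The central granulocyte regulators did not pass the test with all libraries. Cebpa was read at 8674, 9496 and 8759 after GSK-LSD1 and 8737, 11208 and 10261 after ruxolitinib, with a difference of -0.16 ± 0.09 (adjusted p = 0.19). Cebpe, which drives secondary granule genes, was read at 178, 167 and 200.4 after GSK-LSD1 and 194, 223 and 166 after ruxolitinib, a difference of -0.09 ± 0.11 (adjusted p = 0.611). Spi1, the gene of PU.1, was read at 1408, 1263 and 1268 after GSK-LSD1 and 1178, 1515 and 1070.2 after ruxolitinib, a difference of 0.08 ± 0.10 (adjusted p = 0.603). In each of these 3 genes the libraries of the drugs overlapped. Without ruxolitinib replicate 2 and combination replicate 3, Spi1 passed as higher after GSK-LSD1, at 0.22 (adjusted p = 0.00648), Cebpe stood at 0.01 (adjusted p = 0.94) and Cebpa at -0.08 (adjusted p = 0.302). Cebpa passed as lower without ruxolitinib replicate 1, at -0.26 (adjusted p = 0.0383). A p that misses the threshold does not show equal levels. Cebpb differed by -0.07 ± 0.09 and did not pass either.

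**Figure D4:**
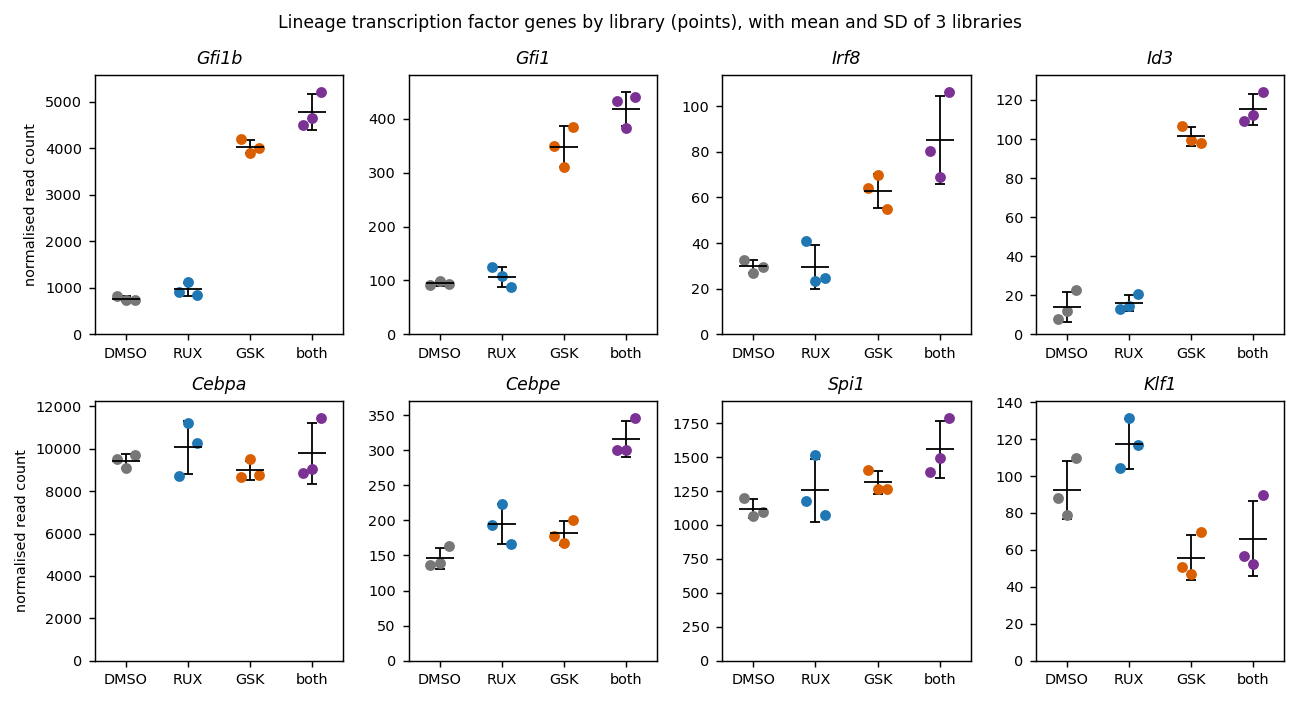
Normalised read counts (y axes, from 0) of 8 transcription factor genes in each library (points) of the 4 treatments (DMSO; RUX, ruxolitinib; GSK, GSK-LSD1; both, the combination), with the mean (dash) and SD (bars) of 3 libraries. Gfi1b, Gfi1, Irf8 and Id3 stand higher in the GSK-LSD1 libraries than in any ruxolitinib library, Klf1 lower, and Cebpa, Cebpe and Spi1 overlap.

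Progenitor genes split. Of 14 tested members of the stem and progenitor list 3 were higher and 2 lower after GSK-LSD1 (median 0.13). Those past the test were 35.7%, beside 25.4% of all tested genes. Cd34, a surface marker of blood progenitors (chr1:194938819-194961279), was read at 1012, 985 and 1064 after GSK-LSD1, 326, 312 and 299 after ruxolitinib and 308, 228 and 254 after DMSO. Each GSK-LSD1 library was above all ruxolitinib and DMSO libraries, and the difference was 1.70 ± 0.09, 3.26-fold (adjusted p = 3.49e-12). Mecom (EVI1) and Sox4, genes of transcription factors of stem cells and leukaemia, differed by 0.77 ± 0.11 and 0.65 ± 0.07. Mecom shares its locus with several other annotated transcripts. Ms4a3, which marks granulocyte and monocyte progenitors (chr19:11629496-11640851), had the largest difference on the ruxolitinib side among all genes named by size: 547, 467 and 341 after ruxolitinib, 128, 124 and 151 after GSK-LSD1 and 343, 319 and 355 after DMSO. The groups of the drugs did not overlap, at -1.72 ± 0.13 (adjusted p = 1.37e-09). The change from DMSO was -1.33 ± 0.13 with GSK-LSD1 (adjusted p = 7.82e-08) and 0.39 ± 0.13 with ruxolitinib, which did not pass (adjusted p = 0.117). Angpt1, the gene of angiopoietin 1, was lower after GSK-LSD1, at -0.73 ± 0.11. Kit, at 54.0, 39.8 and 38.9 after GSK-LSD1 and 33.8, 39.0 and 28.7 after ruxolitinib, overlapped and did not pass (adjusted p = 0.193).

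Erythroid genes were lower after GSK-LSD1: 7 of 12 tested members, with none higher and a median of -0.73, the lowest of the 25 lists. That was 58.3%, beside 25.4% of all tested genes. Slc4a1, the gene of the red cell anion exchanger band 3, was read at 47.8, 59.6 and 76.1 after ruxolitinib and 27.0, 16.9 and 14.0 after GSK-LSD1, a difference of -1.64 ± 0.30 (adjusted p = 0.000299). Car2, the gene of carbonic anhydrase 2, stood at 199, 202 and 249 after ruxolitinib and 98.9, 67.7 and 90.7 after GSK-LSD1, a difference of -1.34 ± 0.14 (adjusted p = 2.67e-07). Klf1, the gene of an erythroid transcription factor, stood at 104, 132 and 117 after ruxolitinib and 51.0, 46.8 and 69.8 after GSK-LSD1, a difference of -1.08 ± 0.19 (adjusted p = 0.000255). None of these 3 overlapped between the drugs. Against DMSO, ruxolitinib changed none of them past the test (adjusted p = 0.743, 0.77 and 0.35), whereas with GSK-LSD1 the changes were -1.86 for Slc4a1, -1.25 for Car2 and -0.72 for Klf1 (adjusted p = 6.09e-05, 7.82e-07 and 0.00593). Rhag and Epor, genes of erythroid surface proteins, differed by -0.84 and -0.69. Rhag lost its call without ruxolitinib replicate 1 or 3 or GSK-LSD1 replicate 2 (adjusted p up to 0.0808). The globin genes Hba-a1, Hba-a2, Hbb-bs and Hbb-bt were listed at 0 in all 6 libraries. Only 4 members passed without ruxolitinib replicate 1, without ruxolitinib replicate 3 or without GSK-LSD1 replicate 2, and 9 passed, all lower, without the 2 libraries that stood apart.

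Megakaryocyte and platelet genes differed member by member. Of 10 tested, 5 were higher and 1 lower after GSK-LSD1 (median 0.24), while 3 of the list were at 0 in all 6 libraries. Those past the test were 60%, beside 25.4% of all tested genes. Thbs1, the gene of thrombospondin 1, was read at 946, 1113 and 1149.8 after GSK-LSD1 and 434, 411 and 426 after ruxolitinib, and Itgb3, the gene of integrin beta 3, at 1548, 1606 and 1541 after GSK-LSD1 and 705, 764 and 826 after ruxolitinib. Neither overlapped, with differences of 1.33 ± 0.10 (adjusted p = 8.91e-10) and 1.03 ± 0.07 (adjusted p = 7.05e-10). Selp (P-selectin), Cd9 and Plek (pleckstrin) were higher by 1.09, 0.56 and 0.47. Itga2b, the gene of the platelet integrin chain alpha IIb, was the 1 that was lower after GSK-LSD1, at -0.19 ± 0.06. Its call was lost without ruxolitinib replicate 2 or 3 or GSK-LSD1 replicate 2 or 3 (adjusted p up to 0.186), and also with no filter on low values, with only the 6 libraries compared and after GC correction. Pf4, the gene of platelet factor 4, did not pass at -0.33 ± 0.16 (adjusted p = 0.126), though it did after quantile normalisation, at -0.46 (adjusted p = 0.0365).

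Genes of mast cells and basophils were well detected in these cells, with 15 of 20 members tested, 4 higher and 3 lower after GSK-LSD1 (median 0.11). Those past the test were 46.7%, beside 25.4% of all tested genes. The summed level of the list ran from 25106 to 26894 after GSK-LSD1 and from 24341 to 26069 after ruxolitinib, so the ranges overlapped, and Epx, Prg2, Prg3, Il4 and Il5ra were under the limit. Higher after GSK-LSD1 was Hdc, the gene of the enzyme that makes histamine, at 1098, 1072 and 1137 against 527, 534 and 658, a difference of 0.95 ± 0.08 (adjusted p = 9.85e-09). The receptor gene Cd200r3 and the protease gene Mcpt8 were higher by 0.95 ± 0.14 and 0.41 ± 0.08. Tpsab1, a tryptase gene whose reads may be split with its near copy Tpsb2, was low, at 31.0, 32.8 and 34.9 against 4.97, 14.4 and 8.89. Lower after GSK-LSD1 were the basophil protease gene Prss34, at 583, 642 and 559 after ruxolitinib, 438, 463 and 425 after GSK-LSD1 and 318, 367 and 388 after DMSO, and the IgE receptor genes Ms4a2 and Fcer1a, the latter not past the test without GSK-LSD1 replicate 3 (adjusted p = 0.053). The groups of Prss34 did not overlap. Its difference was -0.43 ± 0.09 (adjusted p = 0.00152), and it rose against DMSO with both drugs, by 0.73 with ruxolitinib (adjusted p = 0.000454) and by 0.31 with GSK-LSD1 (adjusted p = 0.0131). Cpa3, the gene of mast cell carboxypeptidase A, differed by 0.08 ± 0.06 and did not pass. The part of such marker genes of other cells in the results above was not tested.

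Few genes of dendritic cells and lymphocytes were read at testable levels. Of 6 tested dendritic and class II genes 3 were higher after GSK-LSD1: Ccr7, a homing receptor gene, at 71.9, 75.6 and 88.8 against 23.9, 31.9 and 27.7 after ruxolitinib, Cd74, the gene of the invariant chain, at 54.9, 51.8 and 54.8 against 22.9, 18.5 and 16.8, and Cd86, a costimulatory gene, at 97.9, 99.5 and 123 against 62.7, 38.0 and 55.3. None of them overlapped, and the differences were 1.47 ± 0.17, 1.44 ± 0.19 and 1.05 ± 0.20. They were 50% of the tested genes of that list, beside 25.4% of all tested genes. H2-Aa and Batf3 were at 0 in all 6 libraries. Of 9 tested lymphocyte genes 5 (55.6%) were higher, led by Il7r at 1.65 ± 0.32, Il2rb at 1.43 ± 0.11 and Rag1 at 0.69 ± 0.11. Il7r was read at 53.0, 49.8 and 32.9 after GSK-LSD1 and 10.9, 12.3 and 17.8 after ruxolitinib, and Il2rb at 201, 236 and 211 after GSK-LSD1 and 79.6, 87.3 and 72.1 after ruxolitinib. Cd3e, Cd4, Ms4a1, Pax5, Dntt and Ncr1, defining genes of T, B and natural killer cells, were at 0 in all 6 libraries. Gzmb, the gene of granzyme B, was in contrast read at a very high level. It stood at 46487, 43486 and 44252 after GSK-LSD1 and 33191.5, 35647 and 37562 after ruxolitinib, and was higher by 0.34 ± 0.07 (adjusted p = 0.000861).

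**Figure D5:**
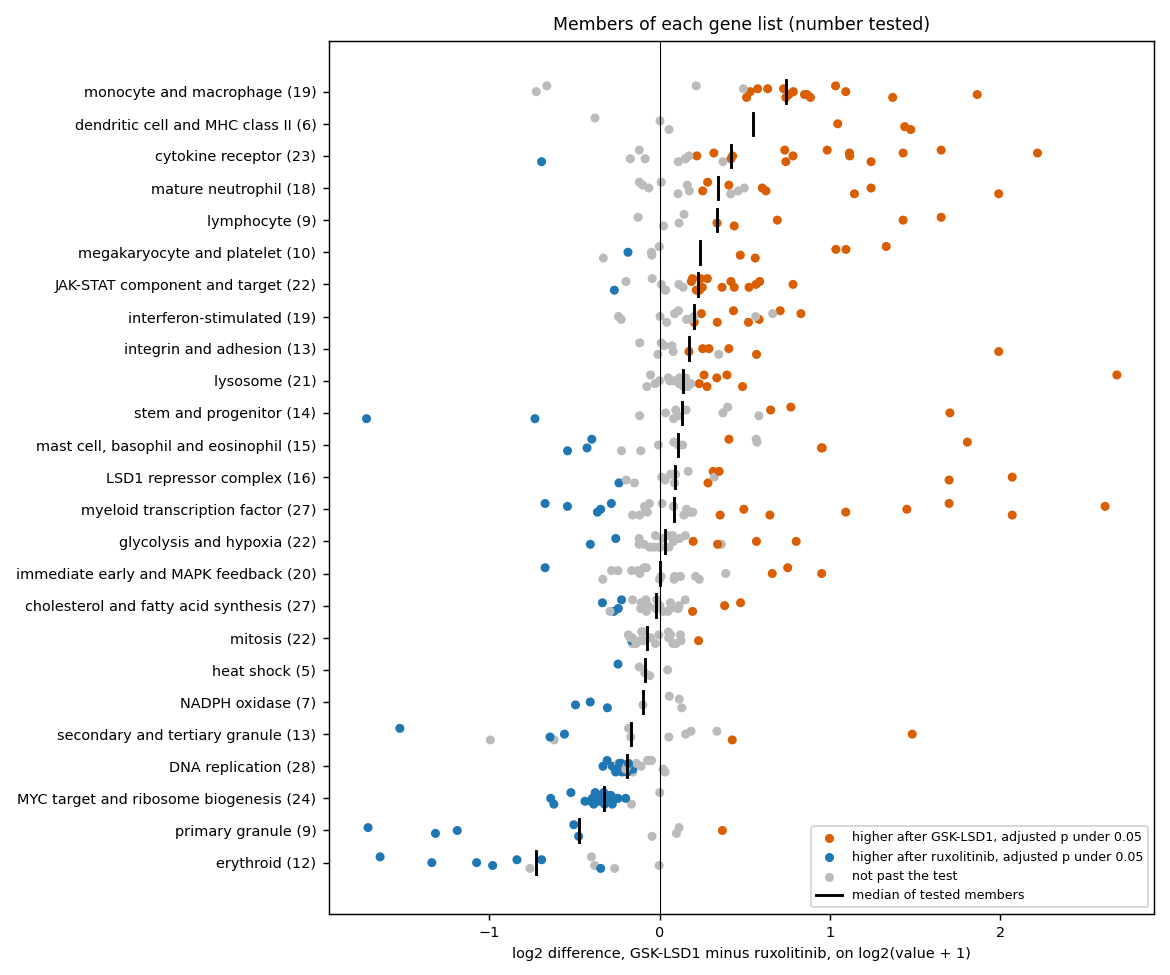
Log2 difference, GSK-LSD1 minus ruxolitinib (x axis), of every tested member of the 25 gene lists (rows, number tested in brackets); orange and blue points passed the test as higher after GSK-LSD1 or after ruxolitinib, grey points did not, and black bars are medians. The rows run from erythroid genes at a median of -0.73 to monocyte and macrophage genes at 0.74, against -0.01 over all tested genes.

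Receptors for cytokines lay mostly on the side of GSK-LSD1. Of 23 tested receptor genes 14 were higher after it and 1, Epor, was lower (median 0.42). Those past the test were 65.2%, beside 25.4% of all tested genes. The call for Epor was lost without ruxolitinib replicate 1 or 3 or GSK-LSD1 replicate 2 or 3 (adjusted p up to 0.163) and with no filter on low values. The largest difference was that of Il10ra, the gene of the interleukin 10 receptor: 111, 120.4 and 137 after GSK-LSD1 against 23.9, 22.6 and 30.6 after ruxolitinib, with no overlap and 2.22 ± 0.19 (adjusted p = 1.09e-08). Il6st, the gene of the gp130 chain shared by interleukin 6 receptors, stood at 998, 1184 and 1122 after GSK-LSD1 and 522, 448 and 557 after ruxolitinib, a difference of 1.11 ± 0.09 (adjusted p = 6.31e-09). Ifngr2, an interferon gamma receptor gene, stood at 607, 602 and 613 after GSK-LSD1 and 269, 332 and 246 after ruxolitinib, a difference of 1.12 ± 0.09 (adjusted p = 8.1e-09). Il18r1 and Il2rg, genes of the interleukin 18 receptor and of the common gamma chain, differed by 0.98 ± 0.06 and 0.73 ± 0.07. Csf2rb and Csf2rb2, near copies of each other, differed by 0.22 and 0.32, and their counts may be split between them. Csf2rb did not pass without GSK-LSD1 replicate 2 (adjusted p = 0.0868). Csf3r, the receptor gene of the model, was read at 1618, 1658 and 1616 after GSK-LSD1 and 1674, 1899.8 and 1748 after ruxolitinib, a difference of -0.12 ± 0.09 that did not pass (adjusted p = 0.372).

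Components and targets of the JAK-STAT pathway also differed, and a few by opposite changes. Of 22 members 14 were higher after GSK-LSD1 and 1 lower (median 0.22). Those past the test were 68.2%, beside 25.4% of all tested genes. The count of 14 fell to 9 without ruxolitinib replicate 1 or without GSK-LSD1 replicate 1. It was 10 without GSK-LSD1 replicate 2 or 3, and 11 without any single DMSO library. Il2ra, the gene of the interleukin 2 receptor alpha chain and a STAT5 target, was read at 2262, 2321 and 2052 after GSK-LSD1, 1131, 1196 and 1563 after ruxolitinib and 1727, 1715 and 1891 after DMSO. All GSK-LSD1 libraries lay above and all ruxolitinib libraries below DMSO. The difference was 0.78 ± 0.09 (adjusted p = 8.78e-07), with a change from DMSO of -0.47 ± 0.09 with ruxolitinib (adjusted p = 0.00874) and 0.31 ± 0.09 with GSK-LSD1 (adjusted p = 0.00913). Osm, the gene of the cytokine oncostatin M, had the same order, at 978, 1014 and 996 after GSK-LSD1, 634, 643 and 714 after ruxolitinib and 785, 864 and 823 after DMSO. It differed by 0.59 ± 0.06 (adjusted p = 6.75e-07), and its changes from DMSO were -0.31 with ruxolitinib (adjusted p = 0.0165) and 0.27 with GSK-LSD1 (adjusted p = 0.00262).

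Other genes of this pathway separated the drugs only weakly. Il4ra and Socs1, the gene of a feedback inhibitor of JAK kinases, were higher after GSK-LSD1 by 0.42 ± 0.06 and 0.44 ± 0.09. The feedback genes Cish and Socs3 were higher by 0.37 ± 0.13 (adjusted p = 0.0431) and 0.19 ± 0.07 (adjusted p = 0.0453), and each lost its call in 11 of the 23 alternatives. For Cish these included leaving out any DMSO library, GSK-LSD1 replicate 1 or 2, ruxolitinib replicate 1 or 3 or combination replicate 2, and for Socs3 any DMSO or GSK-LSD1 library or ruxolitinib replicate 1 or 3. The highest p was found without ruxolitinib replicate 1, at 0.235 for Cish and 0.218 for Socs3. Jak2 and Jak1 were higher by 0.21 and 0.19, and both calls were lost without ruxolitinib replicate 2 (adjusted p = 0.163 and 0.0729) and without GSK-LSD1 replicate 2 or 3. Jak2 also lost its call without ruxolitinib replicate 1 or any DMSO library. The same held without the 2 libraries that stood apart (adjusted p = 0.05725), with a replicate block and with no filter on low values. Pim1 and Socs2, which are known STAT5 targets, differed by -0.04 ± 0.05 and 0.01 ± 0.06 and did not pass. Neither changed past the test with ruxolitinib against DMSO (adjusted p = 0.666 and 0.856). Ccnd3, the gene of cyclin D3, was lower after GSK-LSD1, at -0.27 ± 0.07. Without the 2 libraries that stood apart the list held 14 higher and 1 lower genes.

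Among adhesion genes 6 of 13 (46.2%, beside 25.4% of all tested genes) were higher after GSK-LSD1. They included Itgb7, the gene of integrin beta 7, at 0.57 ± 0.06 (adjusted p = 1.01e-06). Itga4, the gene of integrin alpha 4, was higher by 0.29 ± 0.08 (adjusted p = 0.0136); it lost its call without ruxolitinib replicate 2, GSK-LSD1 replicate 2 or GSK-LSD1 replicate 3, at adjusted p-values of up to 0.0735. The count of 6 fell to 3 without GSK-LSD1 replicate 2 or 3. Immediate early and MAPK feedback genes mostly did not pass, with 3 of 20 higher and 1, Egr1, lower, a share of 20%. The higher ones were Dusp5, the gene of an ERK phosphatase, at 0.95 ± 0.12, and the AP-1 genes Fosl2 and Jun at 0.75 ± 0.09 and 0.66 ± 0.12.

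Genes of growth were lower after GSK-LSD1. All but 2 of the 24 tested genes of MYC and ribosome biogenesis were lower, 22 (91.7%) with none higher, and the median was -0.33. The drugs did not overlap in 23 of these 24 genes. Over all tested genes 25.4% passed the test and 39.7% did not overlap. Myc itself was read at 4451, 4176 and 4369.8 after GSK-LSD1, 5493, 6302 and 5160.3 after ruxolitinib and 5662, 5421 and 5499 after DMSO. The GSK-LSD1 libraries were below all of ruxolitinib and DMSO, and the difference was -0.38 ± 0.07 (adjusted p = 0.000405). Srm, the gene of spermidine synthase, stood at 2058, 1840.3 and 1808 after GSK-LSD1 and 2822, 3231 and 2844 after ruxolitinib, a difference of -0.64 ± 0.07 (adjusted p = 1.05e-06). Rrp9, Nolc1 and Odc1, genes of ribosomal RNA processing, nucleolar assembly and polyamine synthesis, differed by -0.62 ± 0.10, -0.44 ± 0.06 and -0.40 ± 0.06. The 2 that did not pass were Npm1 at -0.17 and Fbl at 0.00. The count was also 0 higher and 22 lower genes without the 2 libraries that stood apart.

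Genes of DNA replication were lower to a smaller degree, 15 of 28 (53.6%) with none higher and a median of -0.19. Mcm5, a gene of the replicative helicase, stood at 3548, 3455 and 3313 after GSK-LSD1 and 4040.1, 4127 and 4167 after ruxolitinib, and did not overlap between the drugs. Its difference was -0.26 ± 0.06 (adjusted p = 0.00175). That of Mcm10, a gene of replication initiation, was -0.26 ± 0.06, and those of Cdt1 and Cdc45, genes of replication licensing and firing, were -0.31 ± 0.07 and -0.28 ± 0.06. The count of 15 fell to 8 without ruxolitinib replicate 1, GSK-LSD1 replicate 2 or GSK-LSD1 replicate 3. Mitotic genes hardly separated the drugs, with 9.1% past the test beside 25.4% of all tested genes. Of 22, 1 was higher (Nusap1, 0.23 ± 0.06) and 1 lower (Aurkb, -0.17 ± 0.06). Both calls were lost without GSK-LSD1 replicate 3 (adjusted p = 0.0687 and 0.161), and that of Aurkb also without GSK-LSD1 replicate 2 or ruxolitinib replicate 1 or 3. The count of these mitotic genes ranged from 0 without that library to 6 without combination replicate 3 or after correction for GC content.

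In metabolism, some of the differing genes had fallen with ruxolitinib. Of 22 tested glycolysis and hypoxia genes 4 were higher and 2 lower after GSK-LSD1 (median 0.03), a share of 27.3% beside the 25.4% of all tested genes. Bnip3, a mitophagy gene induced by hypoxia, was read at 47.8, 50.3 and 71.1 after ruxolitinib, 121, 92.6 and 82.8 after GSK-LSD1 and 103, 88.0 and 106 after DMSO. All ruxolitinib libraries lay below those of GSK-LSD1 and DMSO. The difference was 0.80 ± 0.17 (adjusted p = 0.00124), with a change from DMSO of -0.82 ± 0.17 with ruxolitinib (adjusted p = 0.0148). Slc16a3, the gene of a lactate exporter, differed by 0.57 ± 0.13 (adjusted p = 0.00223) and changed with ruxolitinib against DMSO by -0.52 (adjusted p = 0.0369). The pyruvate kinase gene Pkm was higher after GSK-LSD1 by 0.34 ± 0.07 and Vegfa, the gene of a vascular growth factor, lower, at -0.41 ± 0.08. Eno1 was under the limit although every cell uses it, so a low value in this table need not mean absence.

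Of 27 genes of cholesterol and fatty acid synthesis 3 were higher and 4 lower after GSK-LSD1 (median -0.02), a share of 25.9%. The shares of these 2 metabolic lists are near that of all tested genes, so the counts themselves set neither list apart. The higher ones were led by the stearoyl-CoA desaturase genes Scd2 and Scd1, at 0.47 ± 0.07 and 0.38 ± 0.11, both of which fell with ruxolitinib against DMSO, at -0.29 (adjusted p = 0.0369) and -0.58 (adjusted p = 0.00868). Scd1 lost its call without ruxolitinib replicate 1, ruxolitinib replicate 2 or GSK-LSD1 replicate 2 (adjusted p up to 0.0767). Fdps and Lss, genes of sterol synthesis, were lower, at -0.34 ± 0.06 and -0.27 ± 0.07, the latter not past the test without ruxolitinib replicate 3 (adjusted p = 0.0565). The count of 7 was 4 without ruxolitinib replicate 2, 3 without GSK-LSD1 replicate 2 and 4 without GSK-LSD1 replicate 3. Interferon-stimulated genes were higher after GSK-LSD1 in 8 of 19 cases with none lower (median 0.20), led by Ddx58, the gene of the RNA sensor RIG-I, at 0.58 ± 0.08 (adjusted p = 9.35e-06), and by the guanylate-binding protein genes Gbp2 and Gbp7 at 0.83 ± 0.15 and 0.52 ± 0.11. The count of 8 was 42.1% of the tested members, beside 25.4% of all tested genes, and it was 5 without GSK-LSD1 replicate 2 or 3. Of 5 heat shock genes only Hsph1 passed (20%), at -0.25 ± 0.06.

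The 12 genes with the largest differences on each side, by the rule given in the processing section, reached farther on the side of GSK-LSD1. Moxd1, a gene of the copper monooxygenase family, was read at 387, 346 and 357 after GSK-LSD1, 8.95, 11.3 and 23.7 after ruxolitinib and 32.8, 25.01 and 41.6 after DMSO. The groups of the drugs lay far apart, at 4.65 ± 0.24 or 25.2-fold (adjusted p = 3.56e-12), and the change with ruxolitinib against DMSO was -1.21 (adjusted p = 0.0128). Maged1 was read at 378, 404 and 444 after GSK-LSD1 and 36.8, 48.3 and 35.6 after ruxolitinib, a difference of 3.32 ± 0.13. Dkk1, the gene of a secreted WNT inhibitor, was read at 309.7, 323 and 289 after GSK-LSD1 and 27.9, 33.9 and 47.4 after ruxolitinib, a difference of 3.08 ± 0.15. Cdc42bpb, a kinase gene that overlaps A230087F16Rik on the other strand, was read at 453, 504 and 497 after GSK-LSD1 and 58.7, 64.7 and 57.3 after ruxolitinib, a difference of 2.99 ± 0.12. Pigz, Scpep1, Id3, Endou, Fam198b, Emp1, Kctd14 and Cd7 followed, between 2.93 and 2.39. For all 12 the GSK-LSD1 libraries also exceeded every DMSO library.

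On the ruxolitinib side the order ran Ms4a3, Elane, Ngp, Car2, Prtn3, Atp1b2, Ctsg, Gpr25, Rprm, Mfsd2b, Klf1 and Hemgn, from -1.72 to -0.96. Of these 12, 4 were granule genes and 3 (Car2, Klf1 and Ms4a3) stood on the erythroid or progenitor lists. Hemgn, the gene of hemogen, a nuclear protein of blood progenitors, was read at 211, 218 and 238 after ruxolitinib, 121, 112 and 108 after GSK-LSD1 and 199.6, 210.1 and 179 after DMSO. Its change from DMSO was -0.78 ± 0.12 with GSK-LSD1 (adjusted p = 3.89e-05) and 0.18 ± 0.12 with ruxolitinib, which did not pass (adjusted p = 0.45). The ruxolitinib side thus held genes that rose with ruxolitinib against DMSO, such as Elane and Prtn3, and genes that fell with GSK-LSD1 and did not pass with ruxolitinib, such as Hemgn and Klf1. Against the same 3 DMSO libraries 187 genes (1.63%) changed with ruxolitinib and 3728 (32.5%) with GSK-LSD1.

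When both drugs were given together, the genes that the single drugs moved apart did not follow a single rule. Elane was read at 151, 131 and 176 in the combination, below all ruxolitinib libraries (-0.75 ± 0.14, adjusted p = 0.000235) and above all GSK-LSD1 libraries (0.96 ± 0.14, adjusted p = 0.000273). Mmp8 was read at 8499, 7585 and 7974, above every library of either single drug, with 2.05 ± 0.07 over ruxolitinib (adjusted p = 9.78e-15) and 0.57 ± 0.07 over GSK-LSD1 (adjusted p = 0.000113). Il2ra was read at 1628, 1505 and 1474, -0.53 ± 0.09 from GSK-LSD1 (adjusted p = 0.00155) and 0.26 ± 0.09 from ruxolitinib (adjusted p = 0.0302).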

How the data were processed

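RNA sequencing of total RNA gave 12 libraries, 3 per treatment, and 1 table. Its values are a normalised signal per gene: the authors deposited read counts divided by a factor per library, with 1e-05 added to each. That these are counts in steps is read from the table itself, where all values of a library lay within 0.01 of whole multiples of a step between 0.9865 and 1.027. STAR, DESeq2, mm10 and GRCm38 are named per the submitters' processing notes, with no versions or roles. The annotation, the counting tool and its strand setting are not given in the sources used here. The constant was taken off. Whole reads were not taken as recovered, so tests that need counts were not run.

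A mean per treatment was fitted over all 12 libraries to log2(value + 1) with limma 3.58.1 (R 4.3.3), with a variance trend and 8 residual degrees of freedom. GSK-LSD1 minus ruxolitinib was tested, two-sided, with Benjamini-Hochberg adjustment over 11484 genes and a threshold of 0.05. Log2 differences are on this scale and understate those of low genes. Values ± are the SE of the fit. In simulated data made for this comparison (5 draws of 11484 genes, 200 of them changed), the fit recovered 32.0% of true 1.2-fold changes, 83.4% of 1.5-fold and 94.5% of 2-fold changes, and 5.10% of its calls were false. The simulation had no library that stood apart, and it changed fewer genes than the 2920 called here. Its shares need therefore not carry over to these data. The chi-square per degree of freedom between replicates, which counting error alone would set near 1, was 1.45 to 6.79, the values above 5 being those with ruxolitinib replicate 2 or combination replicate 3. The table also held 27 symbols turned into dates and 2 listed more than once, which were tested and never named.

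The comparison, the 25 gene lists (492 genes) and the 49 genes of prior interest were chosen with earlier results of these data known. Lists are described by counts and medians, and their members overlap in part. Genes were named by this rule: the 12 largest differences on each side among called genes whose higher group averaged at least 100, whose single libraries did not overlap between the drugs and whose symbol was not that of a predicted gene; up to 4 members of each list with the smallest p among those past the test; and the genes of prior interest. Not all of them are printed, a few list members are counted but not reported here, and further list members are named to account for a list. Positions are from GENCODE vM21 (GRCm38), matched by symbol, and upstream sequences from RefSeq (GRCm38.p6). Alternatives were other pseudocounts, filters, scalings and sets of libraries, a replicate block and a correction for GC content.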

Additional observations from a re-analysis of the deposited data

How the results depend on the processing

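The number of genes that differed, 2920, ranged from 1973 to 3529 when single libraries were left out, and from 2633 to 3468 over the other 11 alternatives. No named gene past the test changed its sign in any of them, and of the 17 that missed it 6 did. The genes lower after GSK-LSD1 ranged from 797 to 1719 when single libraries were left out, the lowest without GSK-LSD1 replicate 2 and the highest without combination replicate 3. Quantile normalisation gave 1409 higher and 1478 lower genes, against 1567 and 1353. The mature neutrophil genes that differ numbered 5 with no filter on low values and 5 to 8 when single libraries were left out; the cause was not tested. With the replicate number as a replicate block 2642 genes differed, and 3299 with the block and a GC correction. The deviations of libraries with the same number correlated at -0.0196, -0.101 and 0.0390, and GSK-LSD1 replicate 1 correlated best with ruxolitinib replicate 2 (0.145), so the numbers were not taken as pairs. Of 113 named genes past the test, 106 were tested in all 23 alternatives and 94 of them passed in every one; the other 7 fell under the limit of 50. Among those that missed it, Ltf passed after quantile normalisation, without DMSO replicate 3 or without GSK-LSD1 replicate 1, Pf4 after quantile normalisation, Lcn2 without ruxolitinib replicate 3, Cebpa without ruxolitinib replicate 1 and Spi1 without ruxolitinib replicate 2 and combination replicate 3. In the simulation most 1.2-fold differences were missed, but it changed fewer genes than were called here, so this share need not hold for these data.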
